A study of Mus musculus with 20 samples.

Results

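Blood of 5 irradiated WT mice was set against blood of 5 unirradiated Il10-/- mice, 10 of the 20 arrays of the series, to find which genes told the 2 states apart and which did not. The groups were chosen by their labels alone. The irradiated WT mice were C57BL/6 males given 7 Gy of whole-body X-rays, and the unirradiated Il10-/- mice (strain B6.129P2-Il10tm1Cgn/J) were males given 0 Gy. The methods describe the mice as littermates of 8 to 10 weeks from crosses of heterozygous parents, kept in a single room and studied together. Blood was drawn by cardiac puncture 24 h after exposure or sham exposure, into a PAXgene stabilizing solution, and globin transcripts were depleted before labeling with Cy3. The 2 states differ in genotype and in dose at once, so their difference cannot be assigned to either. Values of 5 unirradiated WT mice (C57BL/6 males, 0 Gy) are therefore given beside them as 2 further differences, which share these arrays with each other and with the main comparison.

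IL-10 is a cytokine that restrains macrophages, dendritic cells and T helper cells. Mice without it accumulate activated myeloid cells and inflammatory cytokines. Ionizing radiation acts on blood in other ways. It stabilizes p53, whose targets arrest the cell cycle, repair DNA or start apoptosis, and it kills lymphocytes, above all B cells, within hours. Both states are thus known to disturb blood leukocytes, which is why a gene used to measure a radiation dose may also be asked to tell an irradiated mouse from an unirradiated one with chronic inflammation.

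Levels are log2 intensities relative to the median of the array, and a difference is irradiated WT minus unirradiated Il10-/-, so a positive value is higher in irradiated WT. The share of spots well above background was 42.1 to 55.5% on the irradiated WT arrays and 49.4 to 57.8% on the unirradiated Il10-/- arrays. On the unirradiated WT arrays it went down to 29.9% on replicate 5. Replicates 1 and 2 were the closest pair in both groups, with a robust SD between them of 0.231 in irradiated WT and 0.209 in unirradiated Il10-/-, against 0.404 to 0.937 for the other pairs. Spots repeated within an array had an SD of 0.0849 to 0.112 in these groups. Nothing in the labels says that the 2 replicates share an animal, so they were kept apart, and counts with their mean used as 1 sample are given beside the main ones. Each SE, adjusted p and n of 5 below counts them as separate samples, and would be too favorable if they are not. The probe for Il10 lies at the 3′ end of the gene, outside the disrupted part of the allele, and did not pass the background filter. It read 2.41 to 3.11 on the 5 unirradiated Il10-/- arrays and stayed below the threshold for well above background on all 5 irradiated WT arrays. The signal thus split these arrays as the genotype labels do, and its source was not tested. Directions below rest on the labels.

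Of 22997 features that passed the background filter, 2655 (11.5%) were called by limma, at the study's thresholds for the unadjusted probability (0.001) and the false discovery rate (10%). They stand for 2388 of 18802 genes. Unirradiated Il10-/- blood was higher for 2151 features (9.35%) and irradiated WT blood for 504 (2.19%). Of those called, 2642 differed in the same direction on 5 of 5 slides. This adds little, since it follows for the 2596 called features whose groups did not overlap. The 5 arrays of one group all lay above the 5 of the other for 4443 features (19.3%). At the other end, 9039 features (39.3%) had a 95% interval of the difference that lay wholly inside 2-fold in either direction. These are the features said below not to tell the states apart, although the interval bounds the size and does not exclude a smaller difference. The remaining 11303 features (49.1%) were neither called nor bounded, with a median half-width of the interval of 0.60 over all features. Fewer calls were made in the comparisons with unirradiated WT, with 5.83% of the same features called for irradiated WT and 0.578% for unirradiated Il10-/-. Unirradiated WT replicates 4 and 5 had 38.5% and 29.9% of spots well above background, and their part in these lower counts was not tested.

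With the mean of replicates 1 and 2 used as 1 sample, 1267 features were called, and with slide as a block 1549. The median difference over all features was -0.12, and it depended on how arrays were scaled. With arrays shifted to a reference array it was 0.08, and the share of calls that were higher in irradiated WT moved from 19.0% to 32.4%. In the authors' processed table, which holds 16866 probes, the median was 0.28 and the share 36.3%, although the B-cell list had the same median of -2.69 there as with the reference array. The sign of a small difference is therefore not settled. Counts and medians of the lists and the genes named by rule were recomputed under each scaling, and genes given only as examples of a list were not.

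**Figure D1:**
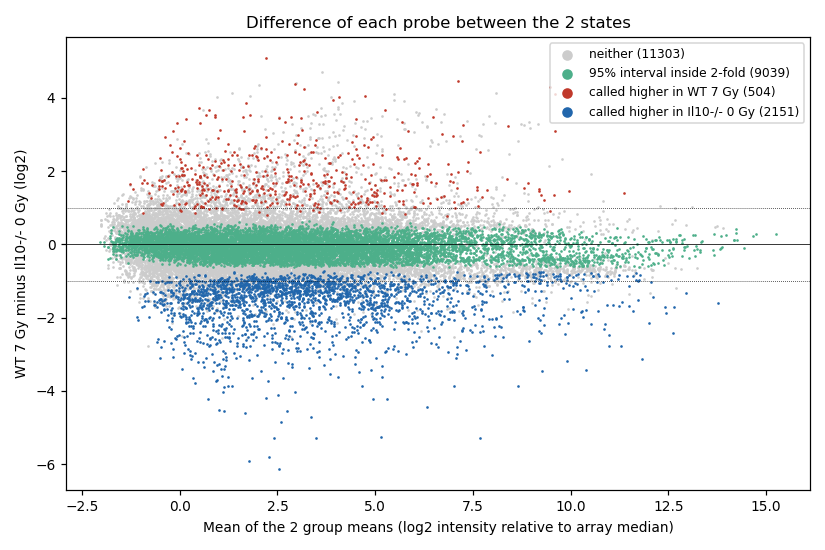
Difference between irradiated WT and unirradiated Il10-/- blood (log2, vertical axis) against the mean of the group means (log2 intensity relative to the array median, horizontal axis) for 22997 probes, with dotted lines at 2-fold. The 2151 probes called higher in unirradiated Il10-/- reach further from 0 than the 504 called higher in irradiated WT, and the 9039 probes with an interval inside 2-fold fill the band around 0.

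B-cell genes separated the states most. In the list of B-cell markers, 21 of 23 measured members were lower in irradiated WT and none was higher, with a median difference of -2.88 against -0.12 over all features. Cd37 and Pax5 were not called, at -0.89 and -0.65. Ccr6, a chemokine receptor of B cells and some T cells, read -0.48, -0.78, -0.02, -0.01 and -1.42 on the irradiated WT arrays and 5.21, 5.23, 5.49, 6.22 and 5.83 on the unirradiated Il10-/- arrays. Every array of the first group lay far below every array of the second, and the difference of -6.14 (SE 0.31, adjusted p = 4.13e-06, n = 5 and 5) was the largest in size among the named genes. Only 1 of the 5 irradiated WT arrays measured Ccr6 well above background. Vpreb3, a VpreB family gene of the B lineage, read 1.16, 0.39, 0.49, 1.25 and 1.01 against 6.43, 6.27, 6.22, 6.86 and 4.90. Its groups did not overlap, and the difference was -5.27 (SE 0.34). Fcer2a, the low-affinity IgE receptor CD23, differed by -4.59, Tnfrsf13c, the receptor for the survival factor BAFF, by -4.55, and Fcmr, the IgM receptor, by -4.23. The second probe of Tnfrsf13c gave a smaller difference, of -1.42, which was also called. Unirradiated WT blood stood near unirradiated Il10-/- blood for these genes. Ccr6 differed by -5.35 between irradiated and unirradiated WT and by 0.79 between the unirradiated genotypes. In bulk blood, fewer cells of a type and less RNA per cell cannot be told apart.

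T-cell genes were lower in irradiated WT to a smaller extent. Of 23 measured members 12 were called, all lower, and the median difference was -1.32. Dapl1, a gene of naive T cells, read -0.85, -2.13, -0.55, -1.16 and -1.26 against 4.99, 4.99, 4.72, 4.85 and 4.09. It was not well above background on any irradiated WT array, so it was at least 31.2-fold lower there, with group means of -1.19 and 4.73 (adjusted p = 4.13e-06). Ccr7, which guides naive T cells to lymph nodes, differed by -3.63, Cd8a, the coreceptor of cytotoxic T cells, by -3.58, and Tcf7, a transcription factor of naive and memory T cells, by -2.96. The coreceptor Cd4 did not tell the states apart, at 0.03 with an interval inside 2-fold. The T-cell receptor chain Cd247 depended on the probe, at 0.77 for the brightest and -2.02, called, for another. Genes of natural killer and cytotoxic cells were not called, but not all were bounded. Of 16 measured none was called, 9 had an interval inside 2-fold and 7 were neither, with a median of -0.24 and a range of -1.23 to 0.39. Among the 16 were Gzma and Prf1, which kill target cells, at -0.20 and -0.28, and Ncr1, an activating receptor, at -0.08. With replicate block 1 of the 16 was called.

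Antigen presentation split by class. Of 10 measured genes of MHC class II, which presents peptides to CD4 T cells, 8 were lower in irradiated WT, with a median of -1.73. H2-Ob and H2-Oa, chains of the B-cell modulator H2-O, differed by -3.30 and -3.14. Cd74, the invariant chain, differed by -2.04, but was not called with replicate block. With that block 4 of the 10 were called, and with replicates 1 and 2 averaged also 4. Of 18 genes of MHC class I and peptide loading none was called, and 13 had an interval inside 2-fold, with a median of -0.01. The class I heavy chains H2-K1 and H2-D1 differed by 0.15 and 0.12, and the peptide transporter gene Tap1 by -0.19. The class I median was 0.18 with arrays shifted to the reference array.

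**Figure D2:**
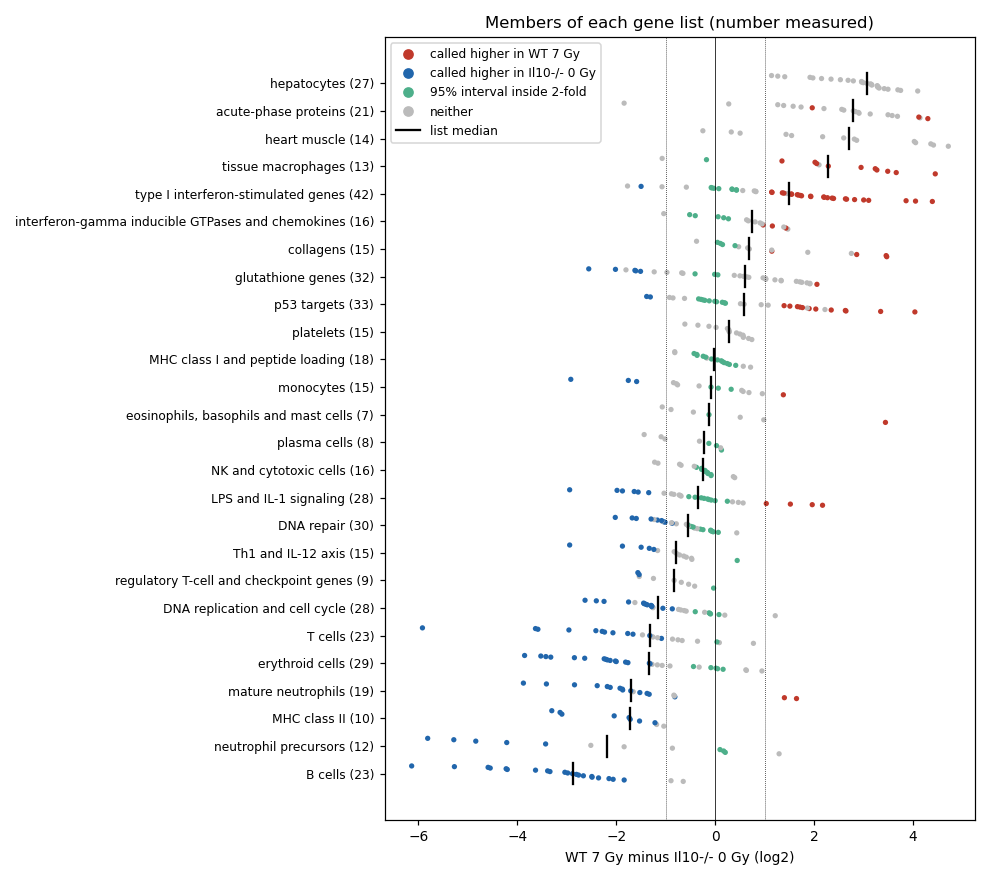
Difference between irradiated WT and unirradiated Il10-/- blood (log2, horizontal axis) of each measured member of the gene lists (rows, number measured in brackets), with black bars at list medians and dotted lines at 2-fold. B-cell members lie to the left, with 21 of 23 called, tissue macrophage and interferon-stimulated members to the right, and members of MHC class I and of the cytotoxic cell list around 0.

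Neutrophil genes separated the states in the direction of unirradiated Il10-/- blood. Of 19 measured genes of mature neutrophils 14 were higher there, and 2 were higher in irradiated WT, with a median of -1.71. Retnlg, a secreted resistin-like protein of neutrophils, read 6.63, 6.57, 6.60, 6.84 and 6.98 in irradiated WT and 11.00, 10.96, 9.61, 9.80 and 11.64 in unirradiated Il10-/-. The groups were far apart, and the difference was -3.88 (SE 0.36, adjusted p = 0.000102 by limma). Cd177, a neutrophil surface glycoprotein, differed by -3.41, but was not called with replicates 1 and 2 averaged. S100a8, a calcium-binding alarmin, differed by -2.18. Mmp8, a collagenase of neutrophil granules, differed by -2.85, and its call was lost with replicate block and when single arrays were left out. Padi4, which citrullinates histones in neutrophils, was higher in irradiated WT by 1.64, with 8.17 on replicate 5 against 6.17 to 6.61 on the other 4. With replicate block 9 of the 19 genes were called. With replicates 1 and 2 averaged 7 were, all higher in unirradiated Il10-/-.

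The largest neutrophil differences were in genes of granule-forming precursors. Ltf, which encodes the iron-binding granule protein lactoferrin, read -2.45, -0.95, 0.17, 0.23 and -0.05 in irradiated WT and 6.00, 6.22, 3.03, 3.48 and 7.27 in unirradiated Il10-/-. Replicates 3 and 4 were the lowest of the second group, yet above every irradiated WT array. The difference was -5.81 (SE 0.82, adjusted p = 0.000776). Ngp, neutrophilic granule protein, differed by -4.84, Camp, the antimicrobial peptide cathelicidin, by -4.21, and Chil3, a chitinase-like protein, by -5.29. Of 12 measured precursor genes 5 were called, all higher in unirradiated Il10-/-. The granule genes Elane, Ctsg and Fcnb had intervals inside 2-fold, at 0.20, 0.10 and 0.17. For Ltf and Ngp irradiated WT blood stood near unirradiated WT, at differences of -0.13 and 0.33, while unirradiated Il10-/- blood was higher than unirradiated WT by 5.68 and 5.18. Chil3 lay on both sides of unirradiated WT, at -2.63 from it in irradiated WT and 2.65 in unirradiated Il10-/-, though only the first of these was called.

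**Figure D3:**
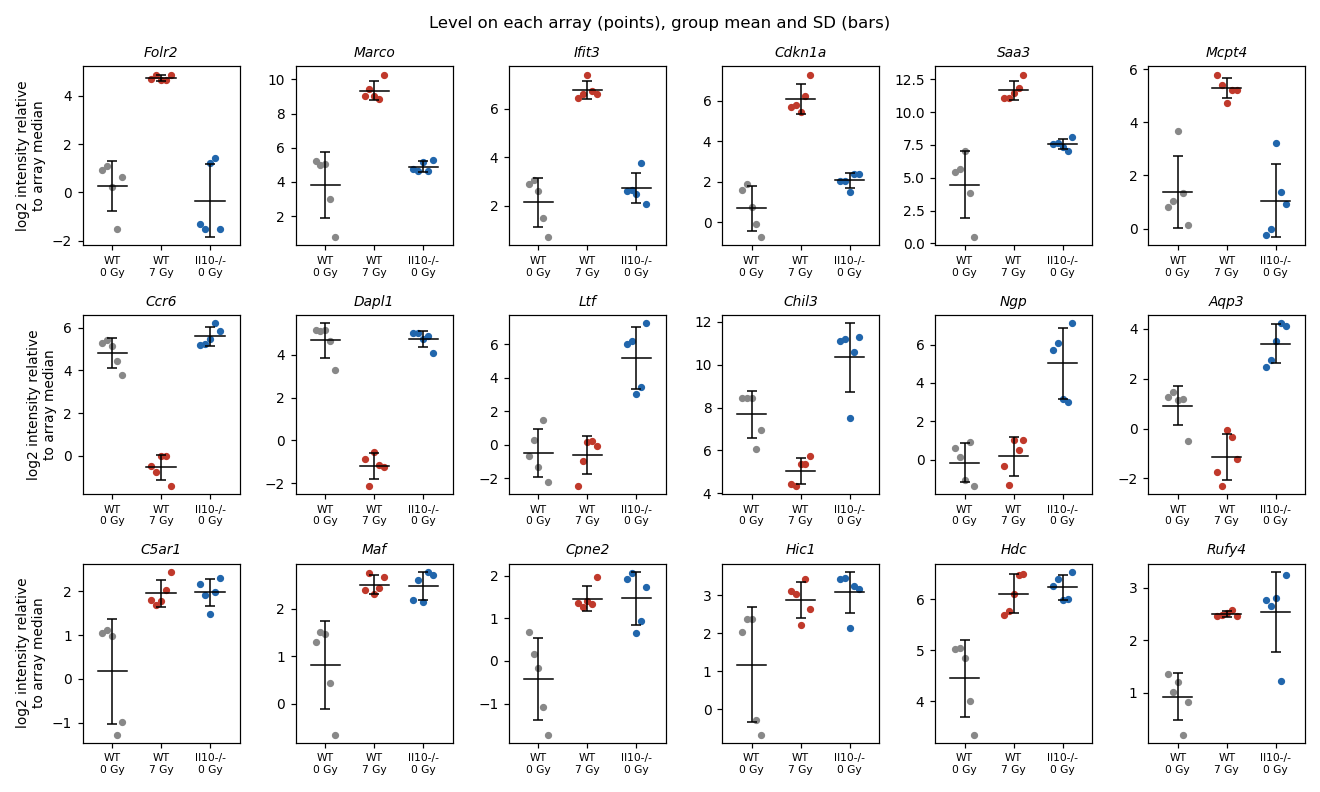
Level of named genes on each array (points, log2 intensity relative to the array median, vertical axes) in unirradiated WT, irradiated WT and unirradiated Il10-/- blood, with group means and SD (n = 5). In the upper row irradiated WT is highest, in the middle row unirradiated Il10-/- lies above irradiated WT, and in the lower row both lie together above the unirradiated WT mean.

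The other genes with the largest differences stood in different places relative to unirradiated WT. Aqp3, a channel for water and glycerol, read -1.75, -2.30, -0.06, -0.35 and -1.24 in irradiated WT and 2.48, 2.73, 3.50, 4.23 and 4.10 in unirradiated Il10-/-. The groups did not overlap, and the difference was -4.55 (SE 0.48, adjusted p = 0.00019 by limma), with the probe well above background on 1 of 5 irradiated WT arrays. From unirradiated WT it differed by -2.06 in irradiated WT and by 2.49 in unirradiated Il10-/-, both called. Cd163l1, a scavenger receptor family gene of gamma delta T cells, differed by -5.28 between the states, and by -1.38 and 3.90 from unirradiated WT, of which only the second was called. Apol10a, an apolipoprotein L gene, read 0.42 to 2.10 against 2.59 to 7.49, and its call at -4.70 was lost with replicate block, with replicates 1 and 2 averaged and with the planned normexp correction, another way to remove local background. Cbr2, a carbonyl reductase, was higher in irradiated WT by 3.95 (SE 0.25), while unirradiated Il10-/- stood 0.01 from unirradiated WT.

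Red-cell genes were also lower in irradiated WT. Of 29 measured erythroid genes 16 were called, all lower, and the median was -1.33. Slc4a1, the anion exchanger band 3, differed by -3.42. The early erythroid regulators Gata1 and Klf1 did not separate the states, at 0.05 and 0.01, and Alas2, the first enzyme of heme synthesis in red cells, stood at -0.09, each with an interval inside 2-fold. With replicate block 7 of the 29 were called. None of 15 platelet genes was called and none had an interval inside 2-fold, so they were neither separated nor shown alike. Globin transcripts had been depleted before labeling, and what this did to other red-cell transcripts was not tested.

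Macrophage genes gave the opposite direction. Of 13 measured markers of tissue macrophages 10 were higher in irradiated WT, with a median of 2.29. Marco, a scavenger receptor, read 9.04, 9.47, 9.04, 8.88 and 10.29 in irradiated WT and 4.76, 4.66, 5.17, 4.62 and 5.28 in unirradiated Il10-/-. The groups were separated by more than the whole spread of either, and the difference was 4.45 (SE 0.28, adjusted p = 1.66e-05). Vsig4, a complement receptor, differed by 3.66, and C1qa, a chain of complement C1q, by 3.49. Folr2, a folate receptor of macrophages that is not in the list, read 4.70, 4.89, 4.64, 4.66 and 4.89 against -1.30, -1.53, 1.22, 1.43 and -1.52, a difference of 5.09 (SE 0.59, adjusted p = 0.00029). The irradiated WT values of Folr2 were nearly equal, and only 2 of the 5 unirradiated Il10-/- arrays measured it well above background. Of 15 blood monocyte genes 1 was called higher in irradiated WT and 3 lower (26.7% called, against 11.5% over all features), with a median of -0.09. Cx3cr1, Ccr2 and Ear2 were the lower ones, by differences of -2.92, -1.76 and -1.59, and Ccr2 was not called with replicates 1 and 2 averaged. Csf1r, the receptor for the growth factor CSF1, had an interval inside 2-fold at -0.09. Cpa3 and Mcpt4, proteases of mast cells, were higher in irradiated WT, by 3.44 and 4.24. In the list of eosinophils, basophils and mast cells, which does not hold Mcpt4, Cpa3 was the only called member of 7 (14.3%). Over all features, 11.5% were called either way and 2.19% were called higher in irradiated WT. The median of that list was -0.13, and Siglecf, an eosinophil lectin, stood at -1.07 without being called.

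Markers of other organs were present in both groups. The mean level of 27 hepatocyte genes was 10.2, 10.2, 7.30, 2.16 and 4.67 on irradiated WT arrays 1 to 5 and 1.59, 1.62, 7.29, 8.49 and 1.37 on the unirradiated Il10-/- arrays. The mean of 14 heart muscle genes was 1.16 to 6.95 in irradiated WT and 0.81 to 3.51 in unirradiated Il10-/-. None of these 27 and 14 genes was called, although their medians were 3.07 and 2.70, and their arrays overlapped between the groups. Marco read 8.88 on the irradiated WT array with the lowest hepatocyte mean and 4.62 on the unirradiated Il10-/- array with the highest. For Folr2, the 2 higher unirradiated Il10-/- values were on replicates 3 and 4, the arrays with the highest hepatocyte means of that group. Of 21 measured acute-phase genes, most of which the liver makes, 3 were called (14.3%), all higher in irradiated WT, and the median was 2.79. Over all features, 11.5% were called either way and 2.19% were called higher in irradiated WT. The 3 called genes were Saa1 and Saa3, serum amyloid proteins, at 4.30 and 4.12, and Lbp, which binds lipopolysaccharide, at 1.96. Saa1 was not called with replicate block. Saa3 read 11.1 to 12.9 in irradiated WT and 7.06 to 8.09 in unirradiated Il10-/-, both above the unirradiated WT mean of 4.48 ± 2.52 (SD, n = 5). With hepatocyte and heart muscle means as covariates, 2452 features were called, of which 1826 were among the 2655 called without them. Of the 86 called named genes, many of which were picked for large differences, 3 lost their call (Atm, Il27ra and Ctla4). The acute-phase median was then 0.19, with 5 members called higher in irradiated WT and 2 higher in unirradiated Il10-/-. With replicates 1 and 2 averaged it was 1.63. The part of these tissues in single genes was not tested. Of 15 collagen genes 4 were called (26.7%, against 11.5% of all features called either way), all higher in irradiated WT. Col1a1 read 4.08, 3.88, 3.01, 1.19 and 1.00 against -0.85, -0.94, -1.21, -1.54 and 0.36, lowest in irradiated WT on arrays 4 and 5. Its call was lost with replicate block, and all 4 calls were lost under the normexp correction refitted without spots far below their local background.

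**Figure D4:**
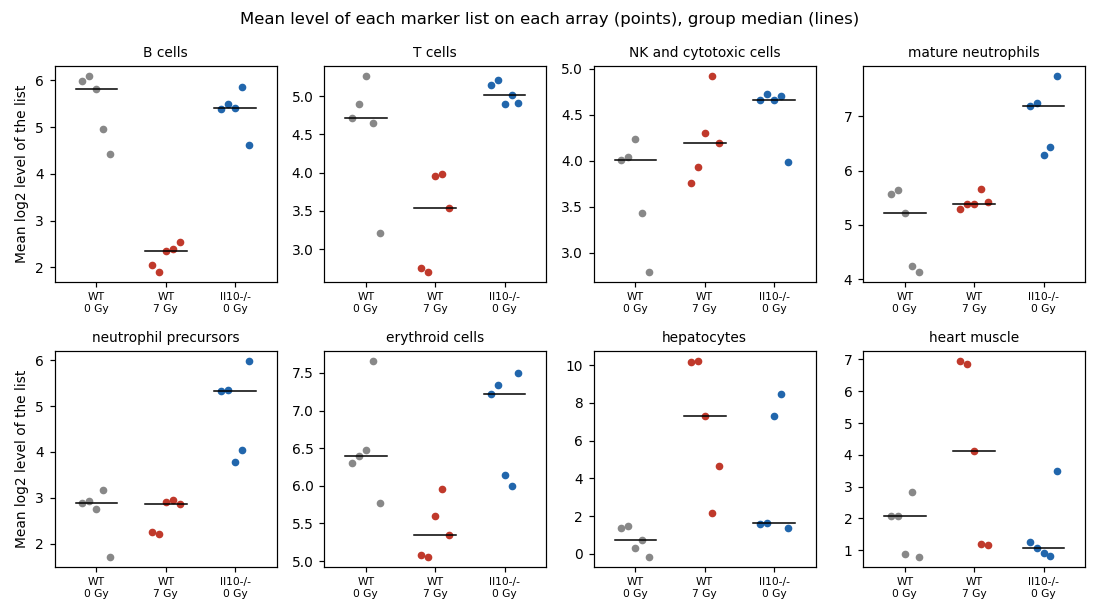
Mean level of marker lists on each array (points, log2 intensity relative to the array median, vertical axes) in unirradiated WT, irradiated WT and unirradiated Il10-/- blood, with lines at group medians. B-cell means lie at 1.90 to 2.53 in irradiated WT and 4.62 to 5.85 in unirradiated Il10-/-, while hepatocyte means overlap between these groups.

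Targets of p53 told the states apart in part. Of 33 measured, 12 were higher in irradiated WT, 2 were lower, and 10 had an interval inside 2-fold, with a median of 0.58. Cdkn1a, which encodes the cell-cycle inhibitor p21, read 5.72, 5.78, 5.42, 6.25 and 7.30 in irradiated WT and 2.03, 2.05, 1.49, 2.37 and 2.36 in unirradiated Il10-/-. The groups did not overlap, and the difference was 4.04 (SE 0.34, adjusted p = 8.43e-05). Against unirradiated WT, Cdkn1a differed by 5.42 in irradiated WT and by 1.38 in unirradiated Il10-/-, and the second of these was not called. Phlda3, an inhibitor of Akt, differed by 3.34, Ccng1, cyclin G1, by 2.03, Aen, an apoptosis nuclease, by 1.76, and the apoptosis genes Bax and Bbc3 by 1.71 and 1.39. Plk2, a polo-like kinase, was not well above background on any unirradiated Il10-/- array and was at least 3.87-fold higher in irradiated WT. The death receptor gene Fas (0.21), the stress-response gene Sesn2 (0.18), Trp53inp1 (-0.01) and Pmaip1 (-0.12), which promotes apoptosis, did not separate the states. Xpc and Ddb2, which recognize DNA damage in nucleotide excision repair, were higher in unirradiated Il10-/-, at -1.39 and -1.31. Xpc was near unirradiated WT in irradiated WT (-0.10) and stood 1.28 above it in unirradiated Il10-/-, neither of which was called.

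Cell-cycle and DNA repair genes were lower in irradiated WT where they differed. Of 28 genes of replication and the cell cycle 13 were called (46.4%, against 11.5% over all features), all lower, with a median of -1.16. Nusap1, a spindle protein, differed by -2.63, and the mitotic cyclins Ccnb2 and Ccna2 by -2.40 and -2.25. Rrm2 and Tyms, which supply nucleotides, had intervals inside 2-fold, both at -0.10. With replicate block 2 of these 28 genes were called, a share near that over all features (1549 of 22997). Of 30 repair genes 9 were called (30%), all lower. With replicate block 4 were called, with replicates 1 and 2 averaged 4, and under the refitted normexp correction 3. Over all 22997 features these settings called 1549, 1267 and 1822. Parp1, which senses DNA breaks, differed by -2.02 (SE 0.21). The damage kinases Prkdc and Atm were not well above background on any irradiated WT array, and were at least 2.18-fold and 2.17-fold lower there. Atm was not called with replicate block, and its second probe gave -0.31 and was not called.

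Interferon-stimulated genes were higher in irradiated WT. Of 42 measured genes of the type I response 25 were called higher, 1 was called lower, and 8 had an interval inside 2-fold, with a median of 1.49. Ifit3, an antiviral protein with tetratricopeptide repeats, read 6.45, 6.63, 7.42, 6.73 and 6.60 in irradiated WT and 2.62, 2.66, 2.47, 3.76 and 2.08 in unirradiated Il10-/-. Replicate 3 was high in the first group and replicate 4 in the second, and the groups stayed apart by a difference of 4.05 (SE 0.31, adjusted p = 5.88e-05). Its paralog Ifit3b differed by 4.39, Ifi44 by 3.86, the small interferon-induced gene Ifi27l2a by 3.10, the membrane tether Bst2 by 3.00 and Oas1a, which makes the activator of RNase L, by 2.82. Ifit3 and Ifit3b, and the Oas1 genes, are close copies whose probes may share signal. For Ifit3 and Ifi44 unirradiated Il10-/- stood near unirradiated WT, at 0.57 and -0.12. Isg20, a nuclease, did not separate the states, at -0.07. Rsad2, the antiviral protein viperin, lay lower in irradiated WT by a difference of -1.77 that was not called, though it was under 7 of 25 other settings. Ifitm1, a membrane protein that blocks virus entry, was the exception among the calls, at -1.50. It read 7.41 to 8.15 in irradiated WT and 8.25 to 10.2 in unirradiated Il10-/-, both above the unirradiated WT mean of 6.17 ± 1.19 (SD, n = 5), and its call was lost under the other scalings and with replicate block. Among 16 GTPases and chemokines induced by interferon gamma, 3 were higher in irradiated WT (Gbp3, Gbp2 and Irgm1, by 1.43, 1.16 and 0.97) and 5 had an interval inside 2-fold. The share called was 18.8%, against 11.5% of all features called either way and 2.19% called higher in irradiated WT. Gbp4 lay lower in irradiated WT, at -1.04, without being called. None of the 16 was called with replicate block.

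Promoters of interferon-stimulated genes carry the interferon-stimulated response element, bound by STAT and IRF factors. The letters searched were 2 copies of GAAA with any 2 bases between them, on both strands, in the 250 bases before and 50 after each start site (RefSeq, GRCm38.p6). This element was found for 1079 of 27025 genes (3.99%), for 16 of the 31 measured type I genes with a promoter sequence (51.6%), and for 7 of the 16 of these that were called higher in irradiated WT (43.8%). Of the measured genes induced by interferon gamma 9 of 10 had them, and of the measured p53 targets 1 of 25 (4.00%). Isg15 and Stat2, which were not called, had them too. Stretches of 80 bases are shown for the called members with the largest differences that hold the letters, with matches in capitals (overlapping matches run together), since these genes lead the list.
Ifit3b, chr19:34607768-34607847, plus strand: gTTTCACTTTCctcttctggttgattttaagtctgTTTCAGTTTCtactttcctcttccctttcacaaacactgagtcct
Ifit3, chr19:34583372-34583451, plus strand: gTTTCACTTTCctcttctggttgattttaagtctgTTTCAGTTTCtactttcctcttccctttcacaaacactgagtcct
Bst2, chr8:71537552-71537631, minus strand: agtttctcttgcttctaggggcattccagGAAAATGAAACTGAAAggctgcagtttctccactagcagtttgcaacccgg
Oas1a, chr5:120907526-120907605, minus strand: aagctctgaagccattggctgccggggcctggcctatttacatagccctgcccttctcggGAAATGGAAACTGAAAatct

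The stretches of Ifit3 and Ifit3b were identical at 80 of 80 bases. The letters are a description of these windows, and binding was not measured.

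Genes of inflammation were higher in both states in turn. Of 28 measured genes of lipopolysaccharide and IL-1 signaling, 4 were higher in irradiated WT, 6 were higher in unirradiated Il10-/- and 9 had an interval inside 2-fold, with a median of -0.34. Il18r1, a chain of the IL-18 receptor, read 1.51, 1.99, 2.18, 2.67 and 1.88 in irradiated WT and 5.13, 5.12, 4.23, 5.10 and 5.36 in unirradiated Il10-/-. The difference was -2.94 (SE 0.27, adjusted p = 0.000102), although a second probe gave -1.31 and was not called. Il18rap, the other receptor chain, differed by -1.88, Il1b, which encodes IL-1 beta, by -1.64, and Tnfaip3, an inhibitor of NF-kappaB, by -1.99. Il18 and its secreted inhibitor Il18bp went the other way, at 1.52 and 2.17. Il18bp was above unirradiated WT in both states, by 4.46 in irradiated WT and 2.29 in unirradiated Il10-/-, both called. Nfkbia, Il1rn and Tlr4 had intervals inside 2-fold, at -0.13, -0.16 and -0.28. Of 15 genes of the Th1 and IL-12 axis 5 were higher in unirradiated Il10-/- (33.3%, against 9.35% of all features called in that direction), among them Stat4, at -1.24. Il18r1 and Il18rap, named above, are members of this list too and are among its 5 calls. Ifng, the type II interferon, was not called at -0.83. With replicate block 3 of the 15 were called, and 2 with replicates 1 and 2 averaged. Il27ra, a receptor chain for IL-27 and one of the 5, lost its call under 16 of 25 settings. Icos and Ctla4 were the 2 called of 9 genes of regulatory T cells and checkpoints (22.2%, against 11.5% over all features). Neither was called with replicate block. Icos, a costimulatory receptor, differed by -1.56. Ctla4, an inhibitory receptor, was not well above background on any irradiated WT array and was at least 1.12-fold lower there, with arrays that overlapped between the groups.

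Glutathione genes were mixed. Of 32 measured, 5 were higher in unirradiated Il10-/-, 1 was higher in irradiated WT and 3 had an interval inside 2-fold. The share called was 18.8%, against 11.5% over all features. The median, at 0.60 with 20 of 32 above 0, lay opposite to most of the calls, and was -0.33 with the hepatocyte and heart muscle covariates. The list mean was 5.94, 5.98, 4.70, 3.94 and 4.23 on irradiated WT arrays 1 to 5, highest and lowest on the same arrays as the hepatocyte mean. Ggt1, which breaks down extracellular glutathione, was at least 2.73-fold lower in irradiated WT. Gpx7, a peroxidase, was at least 1.70-fold higher there. Gstt1, a glutathione transferase that stood above unirradiated WT in both states, by 4.01 and 4.67, read 8.67, 8.64, 6.22, 5.17 and 6.56 in irradiated WT and 9.84, 9.79, 5.67, 5.96 and 7.26 in unirradiated Il10-/-. The groups overlapped, and the interval of the difference ran from -2.77 to 1.46, so the data neither separate the states by Gstt1 nor show them alike. The same held for Cyp2b10, Cpt2 and Alas1, whose differences were 0.47, 0.51 and 0.64. Acsbg1, an acyl-CoA synthetase, did separate them, at -2.87 (SE 0.39).

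Genes that differ from unirradiated WT in both states, and so do not tell the states apart, were sought among the features with an interval inside 2-fold. Both group means had to lie over 1 from unirradiated WT on the same side, so the pattern was chosen and is a description. It was met by 285 features, of which 10 are given. Unirradiated WT replicates 4 and 5 stood low in many list means, with 2.23 and 0.47 for tissue macrophages against 3.14 to 3.30 on the other 3, and 5.39 and 4.60 for MHC class I against 6.31 to 6.46. Their part in the pattern was not tested. Hdc, the enzyme that makes histamine, read 5.69, 5.78, 6.09, 6.47 and 6.50 in irradiated WT and 6.25, 6.40, 5.99, 6.00 and 6.54 in unirradiated Il10-/-. The arrays were interleaved, with a difference of -0.13 and an interval of -0.61 to 0.36, while Hdc stood 1.66 and 1.78 above unirradiated WT. C5ar1, the receptor for complement C5a, differed by -0.02 (-0.50 to 0.45), at 1.76 and 1.79 above unirradiated WT. Maf, a transcription factor of macrophages and T cells, differed by 0.03 (-0.40 to 0.46), and Wfdc18, a whey acidic protein family member, by 0.20 (-0.34 to 0.73). Cpne2, Hic1, Pde6h, Fndc3b and Rufy4 lay between -0.20 and 0.15. Krtap15 was lower than unirradiated WT in both states, by differences of -1.74 and -1.59, neither called. None of the 10 arrays measured it well above background, and only 1 of 5 unirradiated WT arrays did, so a shared decrease was not shown. Only Wfdc18 and Hdc were called in both of their own comparisons with unirradiated WT, whose arrays for C5ar1 had an SD of 1.19. None of the 10 genes kept an interval inside 1.5-fold apart from C5ar1 and Maf. Pde6h left its margin under 13 of 26 settings, the 1.5-fold margin among them. With all 4 groups in 1 fit, Wfdc18, Hic1, Fndc3b, Krtap15 and Rufy4 left the 2-fold margin. Hic1 also left it without irradiated WT replicate 4, and Hdc left it under the planned normexp correction.

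The 2 gene sets that the study used to classify exposure were read on the same arrays, on which the study had chosen them, so their direction is not independent evidence. Of 23 measured genes of the set trained on WT mice, 10 were higher and 10 were lower in irradiated WT. Srsf1, a splicing factor, Cd81, a tetraspanin, and Nus1 were not called, at -0.77, 0.98 and -0.02, and Nus1 had an interval inside 2-fold. Other probes of Srsf1 were called, at -1.39 and -1.15. Of 23 genes of the set trained on Il10-/- mice, 10 were higher and 11 were lower. Creb5, a transcription factor, was not called at -0.98, and Pvt1, a noncoding RNA regulated by p53, had an interval inside 2-fold at 0.14 for its brightest probe, while another probe was called at 1.45.

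The Il10-/- allele was made in stem cells of another mouse strain, and the region around it may still carry sequence of that strain. Within 10 Mb to each side of the Il10 probe (mm9), 21 of 140 features (15.0%) were called, 18 of them higher in unirradiated Il10-/-, with a median difference of -0.11. The share over all features was 11.5%, near that of the region. Fcmr, Ctse, an intracellular protease, and Cd55, which restrains complement, lie there, at -4.23, -4.45 and -2.90. In this region, a comparison between genotypes alone cannot tell unequal binding of a probe to transcripts of 2 strains from expression. Between irradiated and unirradiated WT, which share a genotype, Fcmr differed by -4.69 and Phlda3, also in the region, by 4.06, both called. Between the unirradiated genotypes they differed by -0.46 and 0.72, neither called. Binding was not tested.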

How the data were processed

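RNA of whole blood was measured on 20 one-color Agilent arrays, 5 per group, and groups and replicate numbers were taken from the labels. The authors deposited the Feature Extraction output, whose processed intensity per spot is background-subtracted and detrended (version 10.7 per the labels, 12.0.2.2 per the file headers). The deposited series table holds log2 values that the authors had normalized and filtered, and was an alternative only. All its columns were mapped.

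Log2 intensities were taken without outlier spots, repeated spots were averaged by probe, and each array's median over its 39429 non-control probes was then subtracted. A probe was dropped if at least 25% of the 20 arrays flagged it as an outlier or as indistinct from background, which also removes genes off in many arrays. The study's further 1.5-fold variation filter was an alternative, since it removes genes that do not differ. Differences were tested with limma 3.58.1 in R 4.3.3 on the 10 arrays, and called at an unadjusted probability under 0.001 and a false discovery rate (Benjamini-Hochberg) below 10%. Intervals are 95% and unadjusted. The code was tested on simulated data. Of 29785 probes with a RefSeq accession 28330 matched a symbol (GRCm38.p6 names). Positions are mm9. For a gene with several probes, lists used the brightest that passed the filter.

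A called probe not well above background on any array of its dimmer group was given a bound. Each bound sets the bright group's mean against the lowest signal well above background on each array of the dim group. The probe's own signal was used where it was higher. No SE was computed for a bound. The members and lists were chosen with earlier results of these data known. Named genes were, in each direction, the 10 largest called non-overlapping differences, up to 4 called members per list and the largest against the list's direction, 10 genes bounded within 2-fold but over 1 from unirradiated WT, and genes the study measured by PCR or drew in its pathway. Other genes are named as examples of list members, chosen after their values were seen. The 5 slides each hold 1 array of every group and 1 replicate number. Deviations of same-slide arrays correlated at -0.65 to 0.41, so slide was not taken as a pairing. The mice were littermates, but which arrays share a litter is not given in the sources used here, and p-values measure the spread between these samples. The number of arrays limits the precision. A few named genes are not reported here, although the counts and medians of their lists include them.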

Additional observations from a re-analysis of the deposited data

Results flagged for a closer look

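In groups of 5 arrays, 19 of 230 values examined (called named genes and list means) had 1 array that stood apart from the other 4 by more than Dixon's 95% critical value, and chance flags about 1 group in 20. Levels are log2 relative to the array median, given against the range of the other 4 arrays. On irradiated WT replicate 3, Ifit3 read 7.42 against 6.45 to 6.73 and the mean of the list of plasma cells read 2.37 against 2.76 to 2.84. On unirradiated Il10-/- replicate 3, Chil3 read 7.51 against 10.57 to 11.29, Cpa3 read 2.71 against 0.95 to 1.09, Ccr2 read 4.64 against 5.66 to 5.91, C1qc read 6.33 against 5.19 to 5.52, Il18r1 read 4.23 against 5.10 to 5.36 and the mean of the list of eosinophils, basophils and mast cells read 2.78 against 2.23 to 2.38. On unirradiated Il10-/- replicate 5, Tcf7 read 3.68 against 4.11 to 4.29, H2-Ob read 4.25 against 5.48 to 5.75, H2-Oa read 4.46 against 5.45 to 5.81, the mean of the list of NK and cytotoxic cells read 3.99 against 4.66 to 4.73 and the mean of the list of heart muscle read 3.51 against 0.81 to 1.25. On irradiated WT replicate 5, Ank1 read 1.07 against 2.21 to 2.46, Padi4 read 8.17 against 6.17 to 6.61, C1qc read 9.95 against 8.52 to 8.66, Gbp3 read 5.80 against 4.90 to 5.05 and the mean of the list of LPS and IL-1 signaling read 3.43 against 2.97 to 3.10. On irradiated WT replicate 4, Acsbg1 read 2.14 against 0.46 to 0.91. No explanation was tested.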

How the results depend on the processing

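Features called (2655), called higher in irradiated WT (504), called higher in unirradiated Il10-/- (2151) and bounded within 2-fold (9039) were recomputed under 27 settings. With replicate block, 1549 were called, 304 higher in irradiated WT and 1245 higher in unirradiated Il10-/-, and 1465 were called by both fits. With replicates 1 and 2 averaged, the counts were 1267, 323 and 944, and with all 4 groups in 1 fit 1648 were called, 1252 of them higher in unirradiated Il10-/-, and 5869 were bounded. Scaling to the reference array gave 834 higher in irradiated WT. The authors' table, of 16866 probes, gave 1299 higher in unirradiated Il10-/- and 3534 bounded. A false discovery rate under 5% alone called 5752, 1175 and 4577. A 1.5-fold margin bounded 1361 and the added variation filter left 4754 bounded. Leaving out 1 array gave 1773 to 2789 called, 382 to 510 and 1391 to 2389 in each direction and 7670 to 8453 bounded. Without unirradiated Il10-/- replicate 1 or 2 the count higher in that group was 1391 or 1398.

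The planned normexp background correction called 83 features, 83 higher in irradiated WT and 0 higher in unirradiated Il10-/- (1871 had an unadjusted p under 0.05 by limma, and 8325 with the processed signal). On 15 spots of unirradiated Il10-/- replicate 3 the signal lay over 100 units below its local background (lowest -64912.2), and the 5th percentile of the corrected array was 9.62 (log2) against 5.82 to 7.10 on the other 9 arrays compared. An alternative chosen after seeing the data fitted the correction without such spots, with 5th percentiles of 5.82 to 6.00 on the 10 arrays. It called 1822, of which 180 were higher in irradiated WT (9.88%) and 1642 higher in unirradiated Il10-/-, and bounded 16002.

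Of 86 called named genes 54 kept their call under every setting except the planned normexp or the covariates, and 69 lost it under the planned normexp. With the covariates Col23a1 reversed to 0.22 and Cpt2 to -0.54, neither called in either fit. Leaving out single arrays ended the call of Ctla4 for 9 of the 10 arrays, of Gbp2, Ifitm1, Il27ra, Irgm1 and Mmp8 for 7, of Atr and Padi4 for 6, and of Ccna2 for unirradiated Il10-/- replicate 5. Dim probes limit what could be bounded.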
